A study of Mus musculus with 16 samples.

Results

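Synonymous alleles are single-base changes in the mitochondrial DNA that leave the amino acid of every reading frame at that position unchanged. They were found by translating each of the 13 mitochondrial protein genes with the vertebrate mitochondrial code, from the reference bases of the deposited coverage table, and by replacing each base with each of the other bases in turn. The rule gave 7887 synonymous alleles among the 48897 alleles possible at 16299 positions. The other alleles in the protein genes comprised 26113 that change the protein, 9 in codons without all their bases and 5 that exchange one stop codon for another, and the last 2 kinds were not taken as members. The reading frames of the 13 genes held 0 internal stop codons, so the label could be checked against the sequence itself.

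The data were bulk ATAC-seq libraries, in which the transposase Tn5 cuts and tags accessible DNA and also reads mitochondrial DNA deeply. All 16 libraries came from femurs of PolG D257A/D257A mice at 3 months of age, and no wild-type library was analysed here. The 8 groups were sorted subsets named after surface markers: Thy, 6C3, Thy_6C3, CD24, CD29, CD24_CD29, CD105 and CD45, each with a replicate 1 and a replicate 2. CD45 marks blood-lineage cells, and the other markers are used to part skeletal cell populations. The labels give neither the gates nor the mice behind a library, so a p-value covers no more than how these libraries vary, and that variation may be technical. The tables hold no gene expression, so the sorted identities could not be checked against marker genes.

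PolG is the polymerase that copies mitochondrial DNA, and the D257A change removes its proofreading, so that copying errors stay in the genome and are passed on. A synonymous change keeps the protein as it was, which is why such changes serve as the class least touched by selection on protein function. The 13 genes encode subunits of respiratory complex I (ND1, ND2, ND3, ND4L, ND4, ND5 and ND6), complex III (CYTB), complex IV (COX1, COX2 and COX3) and the ATP synthase, complex V (ATP8 and ATP6). ND6 alone is encoded on the reverse strand, and the vertebrate mitochondrial code differs from the standard code, for example in reading ATA as methionine.

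An allele is written as its reference base, its position in the mitochondrial genome (MT) of GRCm38, counted from 1 on the forward strand, and its new base. Its fraction is its count divided by the coverage of the position, in percent. An allele was called counted in a library where its fraction was at least 1% with at least 5 counts. The 13 synonymous alleles listed next were counted in every one of the 8 libraries that bear the same replicate number, and are shown because they are the synonymous alleles that all sorted subsets of a number held. Each line shows 33 bases of the forward strand in GRCm38, 5′ to 3′, as the deposited reference bases give them, with the changed codon in capitals. All 13 lie in protein genes encoded on the forward strand.
C10658T in ND4, chrMT:10641-10673: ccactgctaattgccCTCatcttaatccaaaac
C4093T in ND2, chrMT:4076-4108: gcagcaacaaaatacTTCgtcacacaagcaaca
C4216T in ND2, chrMT:4199-4231: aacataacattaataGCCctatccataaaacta
A11465G in ND4, chrMT:11448-11480: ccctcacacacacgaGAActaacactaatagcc
C12428T in ND5, chrMT:12411-12443: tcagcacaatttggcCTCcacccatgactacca
C12515T in ND5, chrMT:12498-12530: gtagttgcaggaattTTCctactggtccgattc
T9936A in ND4L, chrMT:9919-9951: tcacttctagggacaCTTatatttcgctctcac
C10044T in ND4L, chrMT:10027-10059: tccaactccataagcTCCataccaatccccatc
A7024C in COX2, chrMT:7007-7039: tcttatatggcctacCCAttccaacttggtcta
C6227T in COX1, chrMT:6210-6242: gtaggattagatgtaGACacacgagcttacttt
G5840A in COX1, chrMT:5823-5855: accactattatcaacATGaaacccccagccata
T11438C in ND4, chrMT:11421-11453: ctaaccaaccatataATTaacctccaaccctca
C5498T in COX1, chrMT:5481-5513: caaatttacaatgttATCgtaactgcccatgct

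The libraries differed in depth and in error level, and 1 stood apart. Mean coverage ran from 6569 counts per position in CD24_CD29 replicate 2 to 77252 in CD29 replicate 1. A count of 0 therefore allows a fraction of up to 0.0457% in the first and 0.00388% in the second, at 3 counts of the mean coverage. Reads carry no molecular identifiers, so such limits and the exact intervals below cover counting error only. Thy replicate 2 had 332 synonymous alleles counted, of which 254 were A>C and 43 were T>G. These were 24.8% of the 1025 possible synonymous A>C alleles and 12.7% of the 338 possible T>G alleles. Among alleles that change the protein, 29.3% of A>C and 17.7% of T>G were counted in this library. Each of the other 15 libraries had at most 4 synonymous A>C alleles and at most 1 synonymous T>G allele counted. Counts over alleles are therefore given with and without Thy replicate 2.

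Few of the possible synonymous alleles reached 1%. At least 1 of the 16 libraries counted 552 of the 7887 (7.0%), and at least 1 of the 15 without Thy replicate 2 counted 238 (3.02%). The other 7335 were counted in no library, and 314 were counted in Thy replicate 2 alone. Of all 48897 alleles, 3487 were counted in at least 1 of the 16 libraries and 1130 in at least 1 of the 15. Among the 26113 alleles that change the protein, 2.02% were counted in at least 1 of the 15. For transitions alone it was 5.23%, against 4.49% of synonymous transitions. Replicate 1 counted 102 synonymous alleles and replicate 2 counted 472, or 157 without Thy. Both numbers counted 22 of them, which is 21.6% of the list of replicate 1 and 4.66% of that of replicate 2. Without Thy replicate 2 both numbers counted 21, which is 20.6% of the list of replicate 1 and 13.4% of that of replicate 2. Of protein-changing alleles, replicate 1 counted 223, replicate 2 without Thy counted 339, and at least 1 of the 15 libraries counted 528. Most of these were thus counted in 1 number only as well. The same overlap is not given for all alleles, so these shares describe the lists only. No synonymous allele was above 21.7% in any library.

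In complex I, the entry enzyme of the respiratory chain, 8 shared synonymous alleles were high in replicate 1 and low in replicate 2, and 1 stood the other way. The highest was C10658T, which turns CTC into CTT at L164L of ND4, a membrane subunit. In replicate 1 its fraction was 16% in its lowest library, 18.8% at the median and 21.7% in its highest, with a mean of 18.5% ± 2.06 (SD, n = 8). In replicate 2 it ran from 0.375% over a median of 0.583% to 1.02%, with a mean of 0.650% ± 0.244 (SD, n = 8). All 8 subsets of replicate 1 lay above all 8 of replicate 2, with 6C3 and Thy lowest, both at 16%, and CD24_CD29 highest at 21.7%. The shared alleles were listed because they reached 1% in all 8 libraries of a number, which partly fixes such a gap.

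ND2, another membrane subunit of complex I, held C4093T (F60F) and C4216T (A101A). C4093T ran from 5.21% over a median of 7.42% to 8.21% in replicate 1, and from 0.0235% over 0.0757% to 0.290% in replicate 2. C4216T ran from 5.32% over a median of 7.05% to 8.01% in replicate 1, and from 0.00710% over 0.124% to 0.168% in replicate 2. In replicate 1 both alleles were lowest in Thy and CD29, at 5.34% and 5.21% for C4093T and at 5.40% and 5.32% for C4216T. Both were highest in Thy_6C3, at 8.21% and 8.01%.

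A11465G changes GAA to GAG at E433E of ND4. Its fraction ran from 5.44% over a median of 6.80% to 8.66% in replicate 1, and from 0.0193% over 0.251% to 0.581% in replicate 2. CD24_CD29 was highest in replicate 1, as for C10658T in the same gene, and Thy was lowest.

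ND5, a large subunit of the proton-pumping arm, held C12428T (L229L) and C12515T (F258F). C12428T ran from 2.62% over a median of 2.98% to 4.42% in replicate 1, with CD29 highest, and from 0% over 0.135% to 0.274% in replicate 2. C12515T ran from 1.96% over 2.51% to 3.90% in replicate 1, with CD29 lowest, and from 0.0113% over 0.121% to 0.354% in replicate 2. The subset that was highest for the first allele was lowest for the second, although both lie in one gene.

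ND4L, the smallest of these complex I genes to hold a shared allele, carried T9936A (L20L) and C10044T (S56S). T9936A ran from 1.89% over a median of 2.59% to 3.62% in replicate 1 and from 0.158% over 0.208% to 0.408% in replicate 2. C10044T ran from 1.05% over 1.69% to 2.2% in replicate 1 and from 0.130% over 0.325% to 0.998% in replicate 2. C10044T in Thy_6C3 replicate 2 thus lay just below its lowest library of replicate 1. C10099T (L75L), also in ND4L, was among the 5 highest by mean in replicate 2 but was counted in 7 of its 8 libraries. It lay between 1.87% and 2.59% in those 7 and at 0.759% in CD24_CD29, against 0.0466% to 0.256% in replicate 1.

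The shared complex I allele of replicate 2 was T11438C, which turns ATT into ATC at I424I of ND4. It ran from 2.14% over a median of 2.56% to 3.71% in replicate 2, with Thy_6C3 highest, and from 0.160% over 0.338% to 0.600% in replicate 1. It lies 27 bases upstream of A11465G in the same gene, and the pair was high in opposite replicate numbers.

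In complex IV, the terminal oxidase, the alleles shared in replicate 2 alone all lay in COX1, its catalytic subunit. C6227T (D300D) ran from 2.56% over a median of 4.46% to 5.06% in replicate 2 and from 0.129% over 0.174% to 0.547% in replicate 1. G5840A changes ATG to ATA at M171M, a change that is silent only because the mitochondrial code reads both as methionine. It ran from 2.95% over a median of 4.42% to 4.71% in replicate 2 and from 0.214% over 0.569% to 1.14% in replicate 1. C5498T (I57I) ran from 1.47% over 1.94% to 2.56% in replicate 2 and from 0.0303% over 0.270% to 0.368% in replicate 1. For all 3 the libraries of the 2 numbers did not overlap. Their choice, by 1% or more in all 8 libraries of replicate 2, partly fixes this. Only CD24, at 1.14% for G5840A, reached 1% in replicate 1.

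COX2 held the single synonymous allele counted in all 16 libraries, A7024C, which changes CCA to CCC at P4P. It ran from 1.55% over a median of 1.79% to 2.01% in replicate 1, with a mean of 1.78% ± 0.142 (SD, n = 8). In replicate 2 it ran from 1.67% over 1.88% to 2.18%, with a mean of 1.90% ± 0.172 (SD, n = 8). The ranges of the 2 numbers overlapped, and the spread over subsets was small in both. Its change, A>C, is a transversion and the one that Thy replicate 2 held most of, and Thy was the highest library of replicate 2 at 2.18%. The part of that library's A>C level in this value was not tested. CYTB of complex III and the ATP synthase genes held 0 shared synonymous alleles. They hold 780 and 580 of the 7887 possible synonymous alleles, against 4407 in complex I. With so short a list, the 0 is not read as a trait of these complexes.

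**Figure D1:**
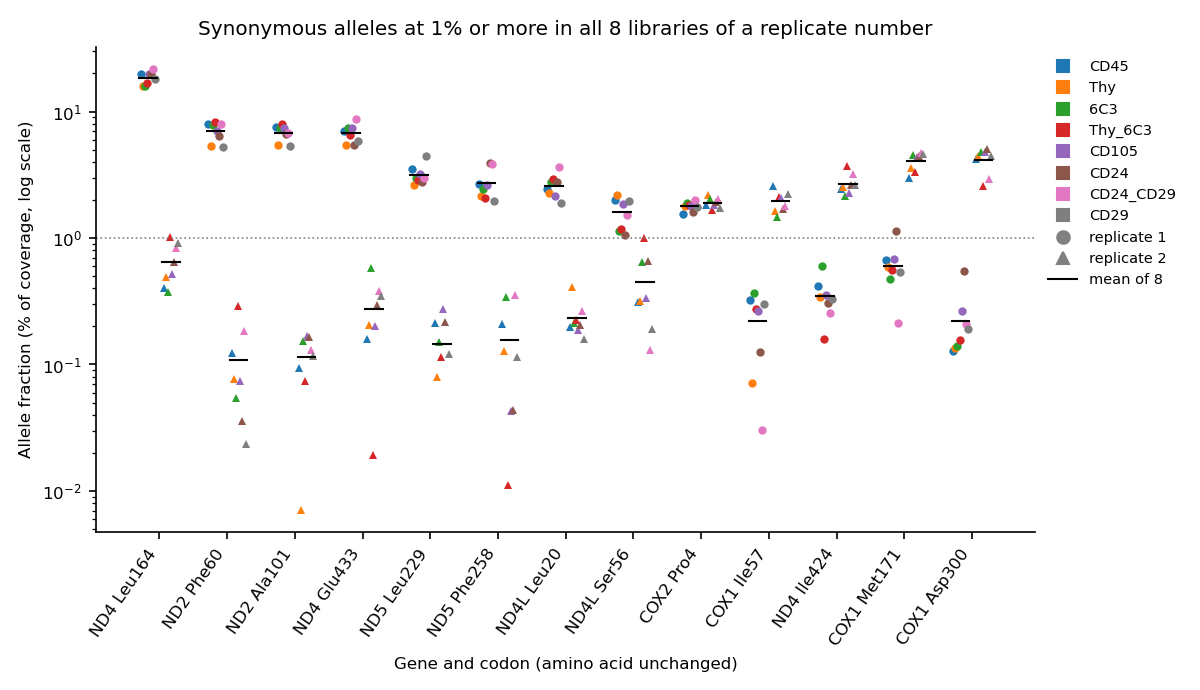
Fraction of each of the 13 shared synonymous alleles in every library, in percent of coverage on a log axis, by gene and codon. Circles are replicate 1, triangles are replicate 2, colours are sorted subsets, lines are means of 8 libraries and the dotted line marks 1%. The 0% of ND5 L229L in CD24_CD29 replicate 2 cannot be drawn on this axis. COX2 P4P lies between 1.55% and 2.18% in all 16 libraries. Every other allele is higher in 1 replicate number than in the other, which the choice of alleles partly fixes. For ND4L S56S the numbers nearly meet, at up to 0.998% in replicate 2 and from 1.05% in replicate 1.

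Of the 13 shared alleles, 11 were transitions and 8 of these were C>T, whereas C>T made up 1325 of the 7887 possible synonymous alleles. Protein-changing alleles counted in all 8 libraries leaned the same way, with transitions 14 of 16 in replicate 1 and 19 of 24 in replicate 2. C>T made up 7 and 11 of these, against 1638 of the 26113 possible protein-changing alleles. Replicate 1 counted 9 synonymous alleles in all 8 libraries and 66 in exactly 1. Replicate 2 counted 5 in all 8 and 443 in exactly 1, and 315 of the latter were in Thy. Among coding alleles counted in all 8 libraries, synonymous ones were 9 of 25 in replicate 1 (36.0%) and 5 of 29 in replicate 2 (17.2%). They make up 23.2% of the possible coding alleles and 36.9% of the possible coding transitions. Of coding transitions counted in all 8 libraries, 33.3% were synonymous in replicate 1 and 17.4% in replicate 2. Of those counted in exactly 1 library, 33.3% and 36.5% were. These lists are short and the shares are a description.

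For each library, the highest synonymous allele that no other library of its number counted was noted. This choice partly fixes its height over the other libraries of its number, and the intervals do not allow for the choice. Its fraction ranged from 1.09% for A14939G (CYTB P265P) in 6C3 replicate 2 to 2.86% for G12521A (ND5 L260L) in CD24_CD29 replicate 2. G12521A had 235 of 8229 counts (2.86%, exact Clopper-Pearson 95% interval 2.51% to 3.24%), and the other 7 libraries of replicate 2 ran from 0.00207% to 0.0761%. A10814G (ND4 L216L) had 364 of 13589 counts in CD24_CD29 replicate 1 (2.68%, 95% interval 2.41% to 2.96%), against 0.140% to 0.384% in the rest of replicate 1. Both belong to CD24_CD29, the subset whose libraries were the shallowest of their number. A10457C (ND4 S97S) had 466 of 20079 counts in CD24 replicate 1 (2.32%, 95% interval 2.12% to 2.54%), against 0.0252% to 0.0596% in the rest of that number. T3200C (ND1 L150L) had 586 of 28275 counts in CD29 replicate 2 (2.07%, 95% interval 1.91% to 2.25%), against 0.254% to 0.958% in the rest.

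In the other libraries with such an allele, the highest was A12482T in Thy replicate 1 (1.44%), T13404C in 6C3 replicate 1 (1.26%), C4574T in Thy_6C3 replicate 1 (1.11%) and C12581T in CD29 replicate 1 (1.19%). In replicate 2 it was T15014C in CD45 (1.44%), A4924C in Thy (2.47%), A5591G in Thy_6C3 (1.89%) and C3925T in CD24 (1.25%). CD45 replicate 1, CD105 replicate 1 and CD105 replicate 2 had 0 synonymous alleles that no other library of their number counted. CD24_CD29 had 38 in replicate 1 and 72 in replicate 2, the most in each number apart from the 315 of Thy replicate 2. Its libraries also counted the most protein-changing alleles of each number apart from Thy replicate 2, at 125 and 171.

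The number of counted synonymous alleles per library ran from 22 over a median of 24 to 60 in replicate 1, and from 17 over 26 to 332 in replicate 2. Replicate 1 gave 23 in CD45, 24 in Thy, 31 in 6C3, 23 in Thy_6C3, 22 in CD105, 33 in CD24, 60 in CD24_CD29 and 24 in CD29. Replicate 2 gave 21, 332, 19, 52, 17, 17, 89 and 31 in the same order. CD24_CD29 was highest in replicate 1 and second to Thy in replicate 2. Alleles that change the protein lay alike. CD24_CD29 counted 125 of them in replicate 1, against 33 to 64 in the other subsets. In replicate 2 it counted 171, second to the 1499 of Thy. With the counts of every library thinned to the mean coverage of the shallowest, CD24_CD29 had 67 and 89 synonymous alleles. The other libraries then had 17 to 56 apart from the 326 of Thy replicate 2. Subsets accounted for 45.9% of the variance in this number between libraries (exact permutation test over 2027025 pairings of the libraries, one-sided, p = 0.330, adjusted p = 0.512 over 4 measures). Shares of variance here and below are not corrected for the number of subsets, so random pairings of libraries also give large ones. The p is the proportion of pairings with a share at least as large, and 45.9% alone does not show that subsets differ. Without Thy replicate 2 they accounted for 80.6% (exact permutation test, one-sided, p = 0.0778, adjusted p = 0.144), which did not pass the threshold either. Without Thy replicate 1 they accounted for 98.8%. Thy replicate 2 was then the only Thy library, so its whole distance from the rest counted as variance between subsets.

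**Figure D2:**
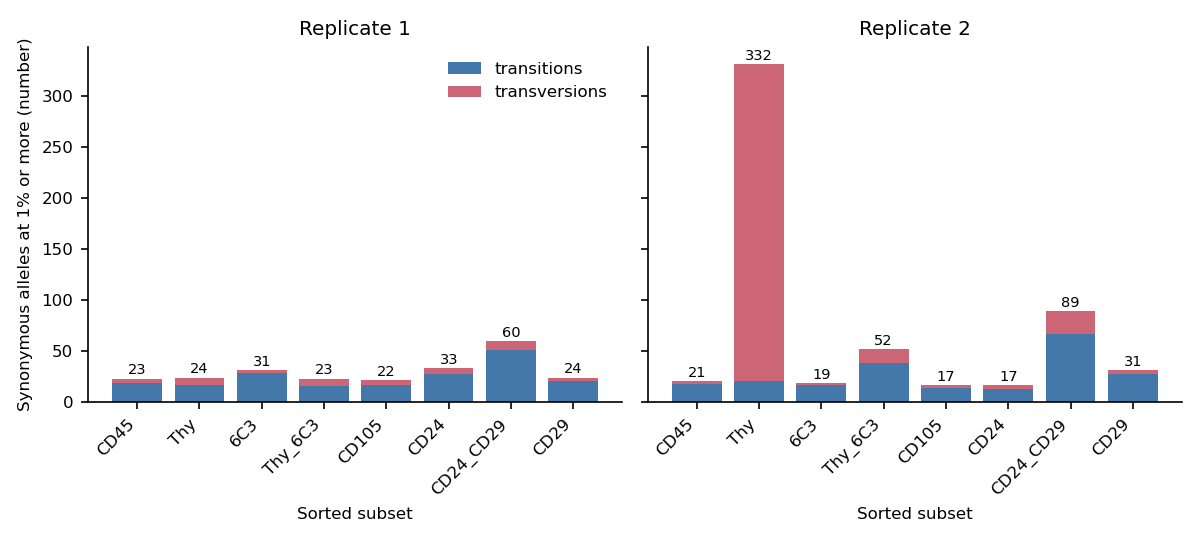
Number of synonymous alleles at 1% or more with at least 5 counts in each library, split into transitions (blue) and transversions (red), with replicate 1 on the left and replicate 2 on the right and the total above each bar. Transversions make up 311 of the 332 alleles in Thy replicate 2, while 17 to 89 alleles, mostly transitions, are counted in each of the other 15 libraries.

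The synonymous load is the mean fraction over all 7887 alleles, given per 10000 counts, and has no threshold. By subset, as the lower and the higher library, it lay at 12.6 and 13.8 in CD24, 13.3 and 14.3 in CD105, 13.5 and 15.1 in CD45, and 14.4 and 14.9 in Thy_6C3. It lay at 14.9 and 15.2 in CD24_CD29, 15.5 and 16.1 in CD29, 15.9 and 17.9 in 6C3, and 14.6 and 30.9 in Thy. Neighbouring ranges in this order overlapped, except that CD24_CD29 lay just above Thy_6C3 and CD29 above CD24_CD29. Thy replicate 2 lay far above every other library. Subsets accounted for 48.1% of the variance (exact permutation test, one-sided, p = 0.380, adjusted p = 0.512). Without Thy replicate 2 they accounted for 79.8% (exact permutation test, one-sided, p = 0.0314, adjusted p = 0.126). Without Thy replicate 1 they accounted for 98.2%. Thy replicate 2 was then the only Thy library, so its whole distance from the rest counted as variance between subsets.

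The load of counted alleles alone, with smaller fractions set to 0, ran from 0.807 to 1.68 per 10000 in replicate 1 and from 0.411 to 5.61 in replicate 2. CD24_CD29 had 1.68 and 1.72 and lay above the other subsets, apart from Thy replicate 2. Subsets accounted for 47.7% of its variance (exact permutation test, one-sided, p = 0.384, adjusted p = 0.512). The synonymous percent of counted coding alleles ran from 27.3% to 41.8% in replicate 1 and from 18.1% to 34.2% in replicate 2, with 29.4% of the variance between subsets (exact permutation test, one-sided, p = 0.823, adjusted p = 0.823). At a threshold of 0.5% in place of 1% this last share of variance was 80.0% (exact permutation test, one-sided, p = 0.00503, adjusted p = 0.0201). Without Thy replicate 2, subsets accounted for 72.6% of the variance of the counted load (exact permutation test, one-sided, p = 0.108, adjusted p = 0.144) and for 14.0% of that of the synonymous percent (exact permutation test, one-sided, p = 0.987). Without Thy replicate 1 they accounted for 97.3% of that of the counted load, again with Thy replicate 2 as the only Thy library.

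The base changes differed in how often their synonymous alleles were counted. Over the 15 libraries without Thy replicate 2, 4.49% of the 4185 synonymous transitions and 1.35% of the 3702 transversions were counted at least once. C>T led at 6.11% of 1325, followed by T>C at 4.89% of 982, G>A at 3.48% of 115 and A>G at 3.12% of 1763. Among alleles that change the protein, the same changes gave 7.69% for C>T, 5.97% for T>C, 2.94% for G>A and 3.73% for A>G. The mean fraction of the transversions was nearly that of the transitions in replicate 1, at 0.150% against 0.153%, although fewer of them were counted.

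By type of site, 5.08% of the 1851 transitions at 4-fold degenerate sites of codon position 3 were counted at least once in these 15 libraries. At such a site any base gives the same amino acid. At 2-fold degenerate sites of codon position 3, where only the transition is silent, 4.27% of 1899 were counted, and at the first position of leucine codons 3.00% of 433. By complex, the counted share of transitions was 4.50% of 2379 in complex I, 4.74% of 422 in complex III, 4.43% of 1084 in complex IV and 4.33% of 300 in complex V. The 4 complexes thus ran from 4.33% to 4.74%.

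By gene, the counted share of synonymous transitions ran from 1.64% in ATP8 (1 of 61) to 6.25% in ND4L (7 of 112). It was 2.45% in ND1 (9 of 367, exact 95% interval 1.13% to 4.6%), against 5.26% (3.6% to 7.39%) for transitions that change ND1. In ND3 it was 3.73% (1.22% to 8.49%) against 10.3% (6.59% to 15.2%), and in CYTB 4.74% (2.92% to 7.22%) against 7.21% (5.43% to 9.35%). It was lower than for protein-changing transitions in 9 of 13 genes and higher in 4, namely ND2, COX1, ND4 and ND5. The intervals overlapped in every gene.

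**Figure D3:**
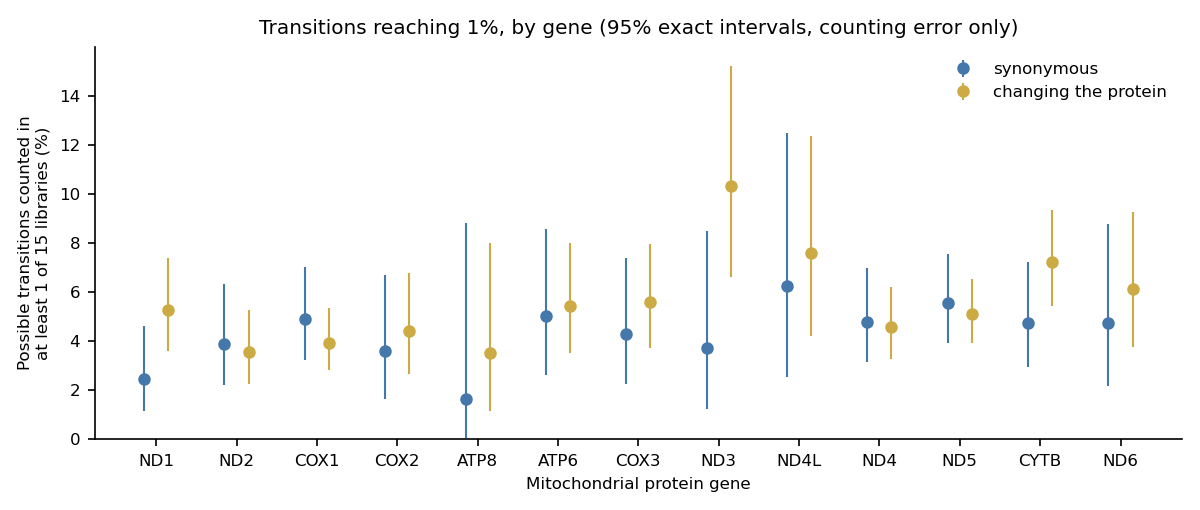
Percent of the possible transitions in each mitochondrial protein gene that were counted in at least 1 of the 15 libraries without Thy replicate 2, for synonymous alleles (blue) and alleles that change the protein (yellow). Bars are exact 95% intervals that treat alleles as independent and cover counting error only. They overlap in every gene, and the gap is widest in ND3, at 3.73% against 10.3%.

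Synonymous C>T alleles differed by the base that follows them. Followed by G, 18 of 112 (16.1%) were counted in at least 1 of the 15 libraries, and followed by T, 13 of 561 (2.32%). Followed by A the share was 9.42% and by C 6.10%. The mean fraction before G was the highest of the 4 in 16 of 16 libraries and that before T the lowest in 16 of 16, at a ratio of 3.16 to 5.21. The 8 shared C>T alleles lay 3 times before A, 3 times before C, 2 times before G and 0 times before T, as the bases after the capitals above show. Leucine codons with a silent first position always have T as their next base. At codon position 3 alone, 16.1% of 112 were counted before G and 2.61% of 268 before T, and the ratio of mean fractions ran from 3.59 to 7.86. For C>T alleles that change the protein, the mean fraction before G was the highest in 3 of 16 libraries and that before T the lowest in 15, at a ratio of 1.56 to 2.73. The next base was chosen after its values were seen, and the pattern carries no test.

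Synonymous and protein-changing alleles were then compared within each library, matched on the base change. The expected number of counted synonymous alleles was the share counted among protein-changing alleles of the same change, times the number of synonymous alleles of that change, summed over the 12 changes. In replicate 1 the ratio of counted to expected ran from 0.785 over a median of 1.10 to 1.5, with 22 counted against 14.6 expected in CD105. In replicate 2 it ran from 0.600 over 0.691 to 1.03, with 17 against 28.3 in CD24 and 89 against 86.5 in CD24_CD29. The ratio was below 1 in 10 of 16 libraries, with a mean log2 ratio of -0.18 (exact sign-flip permutation test over 16 libraries, two-sided, p = 0.0977, adjusted p = 0.147 over 3 measures). It was -0.23, past the threshold, without CD105 replicate 1 or without CD24 replicate 1, -0.28 for transitions alone (adjusted p = 0.0462) and -0.21 with counts thinned to equal coverage (adjusted p = 0.0481), by the same exact test. Matched also on both neighbouring bases, the mean log2 ratio reversed to 0.18 (exact sign-flip permutation test, two-sided, adjusted p = 0.117). Without the alleles counted in all 8 libraries of a number it was 0.013 (adjusted p = 0.909 in the same exact test).

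With the mean fraction of all alleles in place of the share counted, the ratio ran from 0.967 over a median of 1.0 to 1.01 in replicate 1 and from 0.930 over 0.943 to 0.963 in replicate 2. The 2 numbers did not overlap, and replicate 1 was higher in 8 of 8 subsets. Without the alleles counted in all 8 libraries of a number, the ranges overlapped. They were 0.970 to 1.01 in replicate 1 and 0.947 to 1.005 in replicate 2. Replicate 1 was then higher in 6 of 8 subsets, and the ratio was below 1 in 14 of 16 libraries. With all alleles kept, the mean log2 ratio over 16 libraries was -0.043, below 0 in 11 (exact sign-flip permutation test, two-sided, p = 0.00360, adjusted p = 0.0108). Matched on both neighbouring bases as well, it reversed to 0.039 (exact sign-flip permutation test, two-sided, adjusted p = 0.00632), above 0 in 13 of 16. The direction of the difference between synonymous and protein-changing alleles thus turned with the matching, and neither direction held under both. Libraries of a number share alleles, so these p-values are too small, and with 1 value per number the smallest p an exact test can give is 0.5.

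The gap between the numbers was wider at higher thresholds. At 0.5% the ratio of counted to expected ran from 0.893 to 1.10 in replicate 1 and from 0.761 to 1.14 in replicate 2. At 2% it ran from 0.826 to 1.64 in replicate 1, above 1 in 7 of 8, and from 0.308 to 0.686 in replicate 2, below 1 in 8 of 8. At 2% each library held 4 to 18 synonymous alleles. Those of CD45 were shared alleles alone in both numbers, while CD24_CD29 held others too. The same alleles thus recur over the libraries of a number, and 7 of 8 or 8 of 8 are not independent counts. The ratio at 2% without the shared alleles is not given. Without the shared alleles, the ratio at 1% ran from 0.683 to 2.07 in replicate 1 and from 0.762 to 1.15 in replicate 2.

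**Figure D4:**
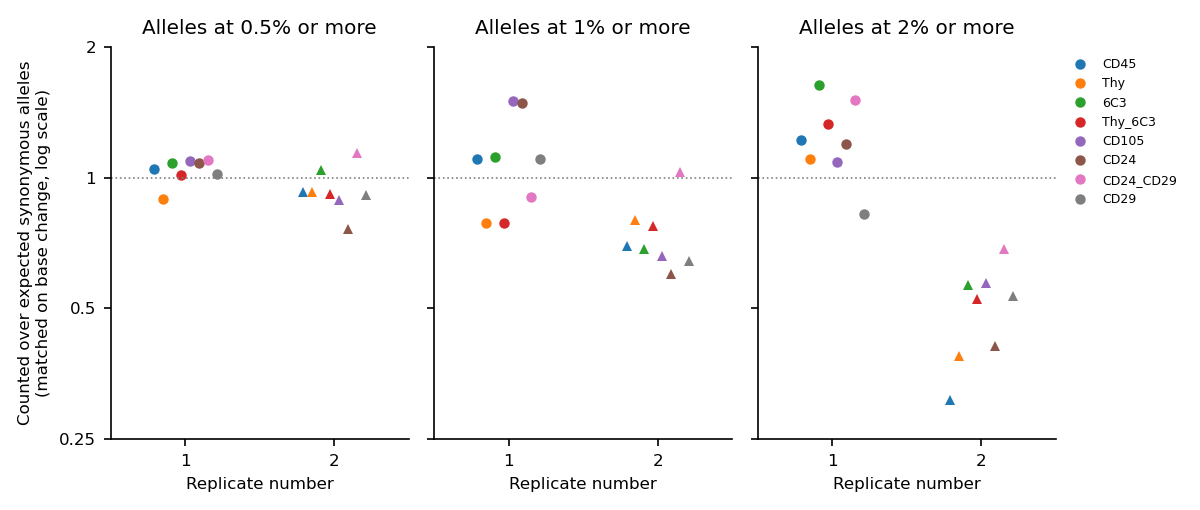
Ratio of counted synonymous alleles to the number expected from protein-changing alleles of the same base change, on a log axis, at thresholds of 0.5%, 1% and 2%. Circles are replicate 1, triangles are replicate 2, colours are sorted subsets and the dotted line marks equal rates. At 2% replicate 1 runs from 0.826 to 1.64 and replicate 2 from 0.308 to 0.686, and at 0.5% the 2 numbers overlap. The shared alleles recur in every library of a number, so its points are not independent.

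For single base changes, the median synonymous fraction was set against the median protein-changing fraction of the same change. For C>T it was lower in 16 of 16 libraries, at a ratio of 0.663 to 0.907, and for G>A higher in 16 of 16, at 1.20 to 2.76. For C>A it was higher in 16 of 16, at 1.09 to 1.16, and for G>T lower in 16 of 16, at 0.832 to 0.917. For A>G it was higher in 16 of 16, at 1.02 to 1.10, and for T>C higher in 10 and lower in 6. Complementary changes thus stood on opposite sides for C>T and G>A and for C>A and G>T. A>C and T>G stood on the same side, both lower in 16 of 16, at 0.882 to 0.950 and 0.893 to 0.999. A>T was lower in 16 of 16 and T>A higher in 14, while C>G was higher in 11 and G>C in 14. The neighbouring bases of the 2 classes differ and were not matched in these medians.

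The mean fraction of synonymous C>T over that of synonymous G>A compares changes of a C:G pair by the strand that carries the C. It ran from 1.18 over a median of 1.28 to 1.73 in replicate 1 and from 0.586 over 0.782 to 0.981 in replicate 2, above 1 in 8 of 8 and below 1 in 8 of 8. Over all 16 libraries the mean log2 ratio was 0.015 (exact sign-flip permutation test, two-sided, p = 0.899). Only 115 synonymous G>A alleles exist, and G5840A, at 4.07% in replicate 2 and 0.606% in replicate 1 on average, is one of them. Without alleles counted in all 8 libraries of a number, the ratio was above 1 in 5 of 8 libraries of replicate 1 and 2 of 8 of replicate 2.

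Each synonymous allele was tested for a difference between subsets with edgeR's quasi-likelihood test, fitted on all 3487 alleles counted in at least 1 library, of which 552 were synonymous. An allele entered when it was high in any 1 library, so those tested are not all members. Of the 552, 314 entered through Thy replicate 2 alone, which partly fixes the results of the Thy contrast below. Over all subsets at once, 0 of 552 passed an adjusted p of 0.05 (Benjamini-Hochberg), where 0% of all 3487 alleles did. At an unadjusted p under 0.05 there were 5 (0.906%), against 1.49% of all alleles. In 8 contrasts, each setting 1 subset against the average over the remaining 7 and thus sharing libraries, 0 synonymous alleles passed, against 0% of all alleles in each. Unadjusted, the edgeR contrasts gave 239 in Thy (43.3%, against 48.9% of all alleles), 47 in CD24_CD29 (8.51%, against 6.31%), 14 in CD24 (2.54%, against 1.23%) and 12 in Thy_6C3 (2.17%, against 3.15%). They gave 6 in CD29 (1.09%, against 0.860%), 2 in 6C3 (0.362%, against 0.459%), 0 in CD45 (against 0.115%) and 0 in CD105 (against 0.172%).

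DESeq2 on the same columns called 0 synonymous alleles over all subsets (against 0.516% of all alleles), 285 in Thy (51.6%, against 58.0% of all alleles) and 11 in CD24_CD29 (1.99%, against 1.92%). The share of synonymous alleles called was close to that of all alleles tested in each. Of the 552 alleles tested, 314 were counted in Thy replicate 2 alone, which partly fixes the Thy calls of either tool. In the edgeR fit without Thy replicate 1, given next, synonymous alleles were called less often than all alleles over all subsets and in Thy. They were called slightly more often than all alleles in CD24. Without Thy replicate 1, edgeR called 302 synonymous alleles over all subsets, against 66.5% of all alleles, with the lone Thy library assumed to vary like the others. It then called 310 in the Thy contrast, against 69.2% of all alleles, and 29 in the CD24 contrast, against 4.28%. Without CD24_CD29 replicate 1 it called 1 in the CD24_CD29 contrast, against 0.419%. With a block for the number, the same edgeR test called 0 synonymous alleles, against 0.0574% of all alleles in Thy, 0.0287% in Thy_6C3 and 0% in the other contrasts. Without Thy replicate 2, edgeR called 0 of 238, over all subsets and in each contrast, against 0% of 1130 alleles.

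The alleles with the smallest p in each contrast show how the libraries lay. In CD24_CD29, A11237G (ND4 T357T) was at 0.457% and 1.07% in replicates 1 and 2. The other subsets ran from 0.105% over a median of 0.159% to 0.269% in replicate 1 and from 0.106% over 0.131% to 0.295% in replicate 2. Both CD24_CD29 libraries lay above all others (edgeR log2 difference 2.1, adjusted p = 0.210, DESeq2 adjusted p = 0.00291). The replicate 2 library of CD24_CD29 was the shallowest of the 16 and the only library in which A11237G reached 1%. The allele entered the test through it, so its height there is partly fixed by that entry.

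In Thy, A14939C (CYTB P265P) was at 0.276% and 1.44%, against 0.136% over a median of 0.156% to 0.214% and 0.0965% over 0.145% to 0.176% (edgeR log2 difference 2.07, adjusted p = 0.0985, DESeq2 adjusted p = 0.0201). CYTB encodes cytochrome b, the quinol-binding subunit of complex III. The allele is an A>C change, of the kind of which Thy replicate 2 held 254. In CD29, C12947T (ND5 C402C) was at 0.423% and 1.15%, against 0.0463% over 0.106% to 0.351% and 0% over 0.0998% to 0.198% (edgeR adjusted p = 0.985). In Thy_6C3, A3236T (ND1 L162L) was at 0.510% and 1.25%, against 0.149% over 0.215% to 0.459% and 0.161% over 0.269% to 0.722% (edgeR adjusted p = 1.0). In each of these the subset's library lay above every other library of its number. Each allele entered the test through the subset's replicate 2 library, the only library in which it reached 1%. Its place above the others is therefore partly fixed by that entry.

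In 6C3, T6791C (COX1 A488A) was at 1.72% and 0.712%, against 0.378% over 0.453% to 1.19% and 0.282% over 0.398% to 0.702% (edgeR adjusted p = 0.996). In CD24, T4813C (ND2 T300T) was at 0.184% and 0.137%, below the 0.228% to 0.901% and 0.297% to 1.12% of the other subsets (edgeR adjusted p = 0.978). T3275C (ND1 L175L) in CD45 and A3293G (ND1 M181M) in CD105 were likewise below the other subsets of their number, at 0.114% and 0.183% and at 0.106% and 0.108%, except that 1 library of another subset in replicate 1 was lower for A3293G, at 0.0813% (edgeR adjusted p = 1.0 for both). M181M is a further change between ATA and ATG, silent only in the mitochondrial code.

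Libraries resembled each other more within a replicate number than across numbers. Over all synonymous alleles, the correlation of fractions on the arcsine square root scale between different subsets averaged 0.654 within a number (0.383 to 0.870) and 0.552 across numbers (0.286 to 0.714). The difference was 0.103 (exact permutation test over 128 swaps of numbers within subsets, one-sided, p = 0.00781, the smallest they can give). For protein-changing alleles it was 0.0807. For all 16 libraries the most similar one bore the same number, and for 13 of them it was CD105. Depth, shared error rates of each base change and the shared alleles all enter these correlations. The labels do not say what a replicate number stands for, so mouse, litter and sorting day cannot be told apart.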

How the data were processed

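The deposited tables hold whole-number counts, made by the authors and not normalized by them: per library, the reads covering a mitochondrial position and those that carry another base than the reference. BWA 0.7.17, cutadapt 2.10, bcl2fastq 2.20 and the builds mm10 and GRCm38 are named, with no role, per the submitters' processing notes. How quality, duplicate reads and nuclear copies were handled is not given in the sources used here, and each could change a low fraction.

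Codons were taken from the deposited reference bases with Biopython 1.88. Samples were grouped by their titles. Values per library were compared by exact permutation tests, one-sided for variance between subsets and two-sided for ratios, with Benjamini-Hochberg adjustment over each family. Single alleles were compared by the quasi-likelihood test of edgeR 4.0.16 under R 4.3.3, at a threshold of 0.05. Its fit took non-reference and reference counts as separate columns, with a term per library that carries depth, so no size factors entered. DESeq2 1.42.0 was an alternative. Other work used matplotlib 3.10.9, pandas 2.3.3, numpy 2.4.6 and scipy 1.17.1 under Python 3.11.15. The procedures were tested on simulated data.

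Alleles were named if they were among the 5 highest by mean in a replicate number, counted in all 16 libraries, the highest among those counted in exactly 1 library of a number, or the smallest p in a contrast. Alleles counted in all 8 libraries of a number are described besides, chosen after their values were seen. The members, lists and tests were chosen with earlier results of these data known.

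Replicate numbers were checked for pairing. Deviations from subset means of the 552 counted synonymous alleles correlated between subsets at 0.383 to 0.901 (median 0.695) in 28 of 28 pairs of subsets, all over 0.1, so the numbers pair the samples. The labels do not say what the number stands for. Alternatives were other fraction thresholds (0.5% and 2%), a minimum of 20 counts, other filters on alleles, transitions only, another choice of codons, the replicate block and leaving out each library. Chosen after seeing the data were thinning to equal coverage, matching on neighbouring bases, leaving out the shared alleles, and the block without Thy replicate 2.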

Additional observations from a re-analysis of the deposited data

Results flagged for a closer look

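Within each replicate number the 8 libraries were searched for a single library far from the rest by Dixon's test at its 95% critical value. Of 42 groups of 8 values, 11 were flagged, where chance flags about 1 in 20. In replicate 1, 6C3 had a synonymous load of 17.9 per 10000, CD24_CD29 had a counted load of 1.68 per 10000 and 60 counted synonymous alleles, Thy had a matched ratio of mean fractions of 0.967, and CD24 had C6227T at 0.547%. In replicate 2, Thy had a load of 30.9 per 10000, a counted load of 5.61, 332 counted alleles and T9936A at 0.408%. CD24_CD29 of replicate 2 had a matched ratio of counted alleles of 1.03 and C10099T at 0.759%. Thy replicate 2 is the library with 254 synonymous A>C alleles, and CD24_CD29 replicate 2 had the lowest mean coverage, 6569.

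The ratio of synonymous C>T to G>A mean fractions lay on opposite sides of 1 in the 2 replicate numbers, at a mean of 1.35 in replicate 1, above 1 in 8 of 8 libraries, and 0.773 in replicate 2, below 1 in 8 of 8. Without the alleles counted in all 8 libraries of a number, it was above 1 in 5 of 8 libraries of replicate 1 and 2 of 8 of replicate 2. The difference between the numbers was not tested.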

How the results depend on the processing

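Of 231 alternative values over 10 results, 207 kept their direction and their side of the threshold. The likeness within a number held in all 21 of its alternatives. Shares of variance between subsets are not corrected for the number of subsets, so random pairings also give large ones. Leaving out each library gave 46.2% to 98.2% of variance between subsets for the load, 46.8% to 97.3% for the counted load, 45.2% to 98.8% for the number and 14.0% to 53.3% for the synonymous percent. The highest of the first 3 came without Thy replicate 1, which left Thy replicate 2 alone in its subset. Without Thy replicate 2 the same 3 were 79.8%, 72.6% and 80.6%, none past the threshold after adjustment. At a threshold of 0.5% the last was 80.0% (exact permutation test, adjusted p = 0.0201). For the matched ratio of counted alleles (log2 -0.18), leaving out each library gave -0.23 to -0.15, past the threshold without CD105 or CD24 of replicate 1. Transitions alone gave -0.28 and thinning -0.21, both past the threshold, while matching on both neighbouring bases gave 0.18 and leaving out the shared alleles 0.013. The cause of these changes was not tested. For the ratio of mean fractions (log2 -0.043), leaving out each library gave -0.047 to -0.039 and neighbour matching 0.039. The replicate block, with 1 mean per number, left its value at -0.043 with an exact p of 0.5 for 2 values, and changed no other call, with 0 synonymous alleles passing edgeR. The log2 C>T over G>A ratio (0.015) ran from -0.037 to 0.068 on leaving out each library and was negative without any 1 of 7 libraries of replicate 1, and -0.0098 without both Thy libraries. The count of synonymous alleles passing edgeR ran from 0 to 302 over all subsets and from 0 to 339 in the 8 contrasts, with 302 and 339 without Thy replicate 1 and 1 (C6107T) without CD24_CD29 replicate 1. DESeq2 called 296 in the contrasts. In the shallowest library a count of 0 allows a fraction of up to 0.0457%.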
